A study of Mus musculus with 6 samples.

Results

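The genes described here are 10 sensors of foreign or misplaced nucleic acids, taken by symbol from the 18158 features of the deposited table: Zbp1, Ddx58, Ifih1, Dhx58, Tlr3, Eif2ak2, Tmem173, Mb21d1, Ifi202b and Ifi204. All 10 were found. Whole ventricles of 6 mice were measured, with 1 library per mouse. The mice were 3 months old and of the outbred CD1 stock. The vehicle group was 3 mice injected with PBS, and the treated group was 3 mice given paromomycin and neomycin together (Paro/Neo), a pair of aminoglycoside antibiotics, at 150 mg/kg 2 times a day into the peritoneum for 14 days. The sensors were selected on TPM values that include the difference between these groups, so their own differences are given as values without a test.

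Nucleic acid sensors are part of innate immunity. The RIG-I-like receptors bind double-stranded or uncapped RNA in the cytosol and signal through Mavs, on mitochondria, to the kinase Tbk1 and the factors Irf3 and Irf7. cGAS, encoded by Mb21d1, makes a cyclic dinucleotide when it meets cytosolic DNA, and STING, encoded by Tmem173, is the receptor for it. Tlr3 samples RNA inside endosomes. Several sensors are themselves induced by the interferons whose production they start. In heart muscle, where mitochondria are abundant, mitochondrial RNA and DNA are known ligands.

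Promoter sequences of 6 of the 10 genes were matched in RefSeq (build GRCm38.p6): Ddx58, Ifih1, Tlr3, Eif2ak2, Mb21d1 (listed as Cgas) and Ifi202b. Zbp1, Dhx58, Tmem173 and Ifi204 were not matched. Each promoter runs from 250 bases before to 50 bases after the gene's start, and was searched on both strands for GAAA followed by any 2 bases and GAAA, the core of the interferon-stimulated response element, bound by interferon regulatory and Stat factors. A match was present in 3 of the 6, Ddx58, Ifih1 and Eif2ak2, and in 3.44% of all 32851 RefSeq promoters of that length. The 3 windows of 30 bases are shown because each holds this core just after the start of a gene for a cytosolic RNA sensor. They read 5′ to 3′ on the gene's strand, the minus strand in each, with the match in capitals.
Ddx58 (chr4:40239804-40239833): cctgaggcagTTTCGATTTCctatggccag
Ifih1 (chr2:62646206-62646235): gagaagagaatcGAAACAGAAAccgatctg
Eif2ak2 (chr17:78882535-78882564): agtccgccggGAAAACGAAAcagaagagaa

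The match lies at bases 3 to 12 of Ddx58, on the opposite strand, and at bases 19 to 28 of Eif2ak2, both in the untranslated part of an annotated exon. In Ifih1 it covers bases 33 to 42, within an annotated exon. The shorter core AANNGAAA, which every match of the longer core contains and which was added after the sequences had been seen, was present in 23.9% of promoters. Besides the sites above it matched at bases 29 to 36 of Ifih1, overlapping the longer match, and at positions -59 to -52 from the start in both Ddx58 and Tlr3. The RefSeq start of Tlr3 lies inside the GENCODE M21 span of the gene, and its match falls in an intron of that annotation. The gamma-activated site, TTCNNNGAA, reads the same on both strands, matched in 8.30% of promoters, and was found upstream in Eif2ak2 and Ifi202b.
Ddx58 (chr4:40239866-40239895): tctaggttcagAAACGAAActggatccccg
Tlr3 (chr8:45410421-45410450): aagtgaatggcTTTCACTTtgtttagacac
Eif2ak2 (chr17:78882732-78882761): cctgcagagctTTCCCAGAAtggaagccag
Ifi202b (chr1:173982974-173983003): cctgtcatgatTTCTCAGAAtaactactga

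These windows show the shorter core in the promoters of Ddx58 and Tlr3 and the gamma-activated site in those of Eif2ak2 and Ifi202b, again in capitals. In the Mb21d1 window none of the 3 motifs was found. A match describes letters of the reference build and not binding. The promoter sequences of these outbred mice were not read and may differ from it. Over the 9205 tested genes with a promoter, the 342 that held the longer core had a median log2 change of 0.03, against -0.02 for the others. Medians over so many genes do not describe the few that changed most.

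**Figure D1:**
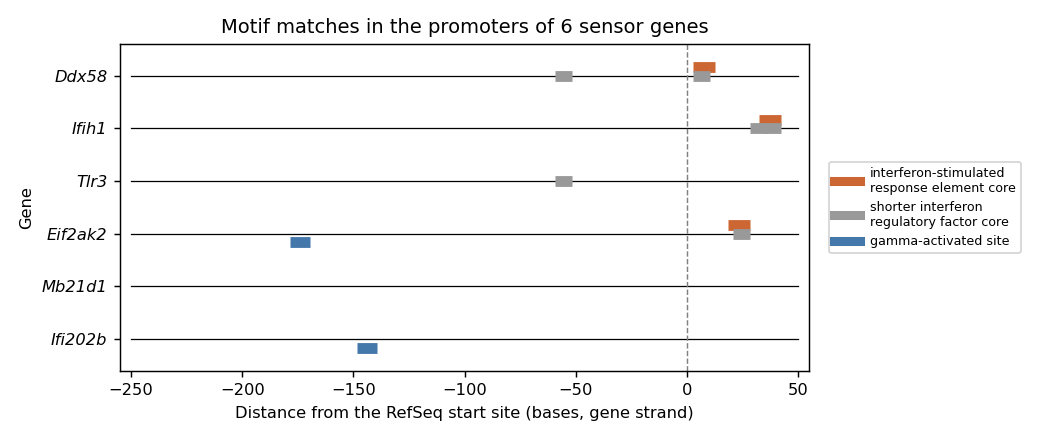
Positions of motif matches along the promoters of 6 sensor genes, by distance in bases from the RefSeq start site on the gene's strand; each horizontal line is 1 promoter and each bar 1 match, coloured by motif. The response element core sits after the start site in Ddx58, Ifih1 and Eif2ak2, and no bar is drawn for Mb21d1.

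Expression is given in TPM, a unit scaled for transcript length and library size, so that genes can be set beside each other. In vehicle hearts the sensors spanned a wide range. Ifi204 was the most abundant, at 28.99 TPM ± 1.56 (SD, n = 3 here and below), followed by Eif2ak2 at 23.4 TPM ± 2.14, Tlr3 at 13.3 TPM ± 0.94 and Ifi202b at 11.6 TPM ± 0.82. In the middle stood Tmem173 at 7.89 TPM ± 1.41, Ddx58 at 7.11 TPM ± 0.41 and Ifih1 at 5.22 TPM ± 1.27. Dhx58, Mb21d1 and Zbp1 were scarce, at 1.15 TPM ± 0.61, 0.869 TPM ± 0.11 and 0.422 TPM ± 0.17. The ranges over mice overlapped between Tlr3 and Ifi202b, between Tmem173 and Ddx58, and between Dhx58 and Mb21d1. Within each vehicle mouse Tlr3 was above Ifi202b, while the order within the other pairs differed between mice.

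In treated hearts the order was different. Eif2ak2 came first at 42.5 TPM ± 11.2, then Ifi202b at 32.5 TPM ± 7.66 and Ifi204 at 30.4 TPM ± 2.21, and the ranges of these neighbours overlapped. Zbp1, last in vehicle hearts, stood above Dhx58 and Mb21d1. Summed over the 10 genes, vehicle hearts held 92.9 to 104 TPM of sensor transcripts and treated hearts 139 to 155 TPM. Most of the difference between these sums came from Ifi202b and Eif2ak2, and the mean of Tmem173 was lower in treated hearts.

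**Figure D2:**
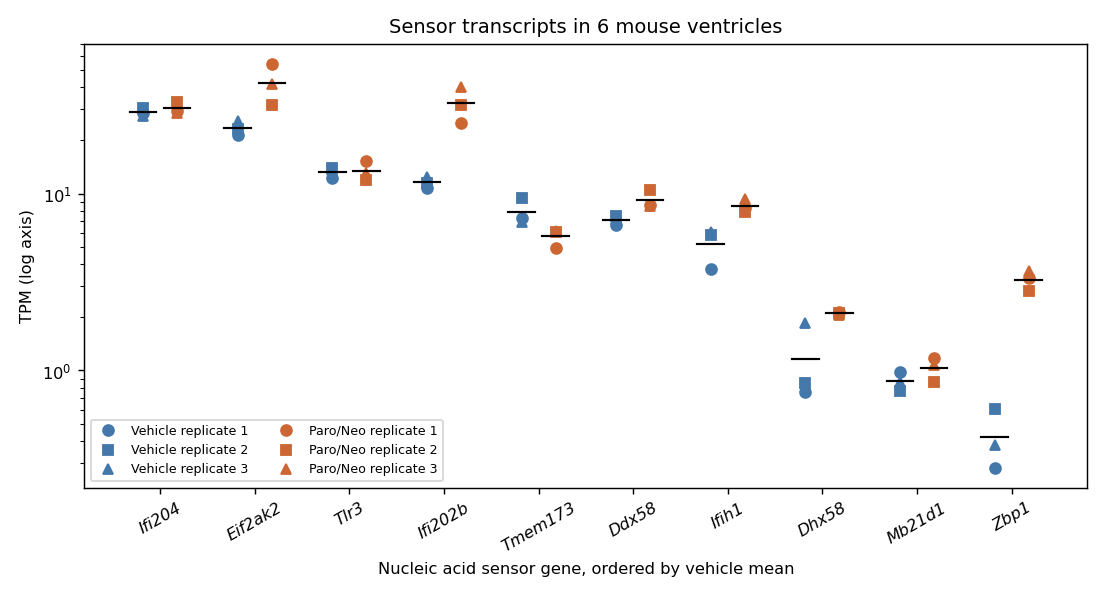
TPM of the 10 sensor genes in each mouse, on a log axis, ordered by the vehicle mean; blue symbols are the 3 vehicle libraries, orange symbols the 3 Paro/Neo libraries, and black lines the group means. The groups stand apart for Zbp1, Ifi202b, Eif2ak2, Ifih1, Dhx58 and Ddx58, with Paro/Neo higher, and for Tmem173, with Paro/Neo lower.

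Across the 10 sensors the treated mice were all above the vehicle mice for 6, all below for 1, and mixed with them for 3. Of all 12409 tested genes, 6.04% stood apart in the higher direction and 8.22% in the lower. The test across all genes was limma on log2(TPM + 1), restricted to genes that reached 1 TPM in 3 or more of the 6 libraries. It took in 9 of the sensors. Mb21d1 was left out. Zbp1 and Dhx58 entered only through the treated mice, since 0 vehicle mice reached 1 TPM for Zbp1 and 1 did for Dhx58. Calls of the test are given only for genes other than the sensors. Nothing is read from the sensors' counts, because the choice of the genes used this contrast. The median log2 change of the 9 was 0.56, the value of Dhx58, beside -0.02 for all tested genes. Without the filter, with Mb21d1 included, the median of the sensors was 0.45. It was 0.55 without Paro/Neo replicate 1, the library that stood farthest from the others.

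The depth inferred from the steps of low values was 9556387 to 15969980 reads per library. Paro/Neo replicate 1 had the lowest mean correlation with the other libraries across genes, 0.976 against 0.981 to 0.985. Ventricular muscle markers such as Myl2 and Tnnt2 summed to 122605 to 128352 TPM in vehicle hearts, against 122135 to 144216 TPM with treatment. Atrial markers (Myl4, Myl7, Sln) summed to 60.8 to 273 TPM and 127 to 529 TPM, varying between mice of each group, and the groups overlapped. No label says whether the mice were littermates, treated on the same day or of which sex.

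Markers of immune cells are given here because those cells express many sensors. The 15 analysed macrophage and monocyte markers summed to 620 to 741 TPM in vehicle hearts, against 736 to 767 TPM with treatment, with overlap. Lyz2 was the largest part of that sum, with means of 359 and 371 TPM. Among the 15 markers, 14 had a higher and 1 a lower mean log2 level with treatment. Groups stood apart for 2 in the higher and 1 in the lower direction, beside 6.04% and 8.22% of all tested genes. None passed an adjusted p of 0.05 (limma; 1 higher and 0 lower at an unadjusted p under 0.05). The 15 T, B and NK cell markers summed to 3.51 to 8.12 TPM against 8.34 to 15.5 TPM, apart by a narrow margin. Of these, 5 reached 1 TPM in any library. The 5 analysed neutrophil markers summed to 7.52 to 18.1 TPM against 23.1 to 25.0 TPM, also apart. Most of that sum was S100a8, with means of 4.23 and 10.1 TPM, and S100a9, with means of 8.06 and 12.2 TPM. The groups overlapped for S100a9, and 1 of the 5 neutrophil markers stood apart. The 8 dendritic cell markers summed to 5.42 to 5.61 TPM and 4.32 to 6.14 TPM. No marker of these 4 lists was at 0 in every library, while Gzmb was at 0 in all 3 vehicle libraries. Fibroblast markers summed to 2650 to 2758 TPM against 2399 to 2614 TPM, apart in the lower direction. Most of that sum was Dcn, with means of 1842 and 1820 TPM and overlap. Endothelial markers summed to 552 to 633 TPM against 436 to 563 TPM, with overlap. Treated hearts stood apart lower for 4 of 7 fibroblast and 2 of 7 endothelial markers, and higher for 0, with no call by limma. In whole tissue, fewer cells of a type and less RNA per cell cannot be told apart. The part of these markers in the sensors' values was not tested.

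Zbp1 encodes a sensor of nucleic acids in the left-handed Z form, which can start necroptosis through the kinase Ripk3. It is annotated on chromosome 2 from 173206612 to 173218923 (build GRCm38 with GENCODE M21, as for the genes below). It was at 0.282, 0.607 and 0.376 TPM in vehicle replicates 1 to 3 and at 3.32, 2.83 and 3.64 TPM in Paro/Neo replicates 1 to 3. All 3 treated hearts were far above the highest vehicle heart and close to each other. The ratio of group means was 7.73, and the log2 change of log2(TPM + 1), a scale that understates changes of low genes, was 1.59 ± 0.16 (SE). These levels rest on 4 to 9 inferred reads per vehicle library and 41 to 58 per treated library. With a pseudocount of 0.1 in place of 1 the log2 change was 2.73.

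The RIG-I-like receptors are RNA helicases. Ddx58 encodes RIG-I, which recognises short RNA with a 5′ triphosphate, and Ifih1 encodes MDA5, which recognises long double-stranded RNA. Dhx58 encodes LGP2, which lacks the signalling domain of the others and regulates them. Each of the 3 was higher in every treated heart than in any vehicle heart, with a smaller ratio of means than Zbp1.

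Ddx58 (chromosome 4, 40203773 to 40239828) was at 6.67, 7.47 and 7.20 TPM in vehicle replicates 1 to 3 and at 8.60, 10.5 and 8.56 TPM in Paro/Neo replicates 1 to 3. The lowest treated heart was only slightly above the highest vehicle heart, and Paro/Neo replicate 2 was the highest. Treated over vehicle means gave 1.30, and the log2 change was 0.33 ± 0.12 (SE).

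Ifih1 (chromosome 2, 62595798 to 62646255) was at 3.76, 5.87 and 6.04 TPM against 8.29, 7.90 and 9.29 TPM. Vehicle replicate 1 was lower than the other vehicle hearts, and the treated hearts lay close together. The ratio of means was 1.63 and the log2 change 0.63 ± 0.17 (SE), or 0.45 without vehicle replicate 1.

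Dhx58 (chromosome 11, 100694884 to 100704271) was at 0.759, 0.847 and 1.86 TPM against 2.15, 2.11 and 2.05 TPM. Vehicle replicate 3 stood near the treated hearts and away from its own group. Its ratio of means was 1.82 and its log2 change 0.56 ± 0.20 (SE), which was 0.78 without vehicle replicate 3 and 0.92 with a pseudocount of 0.1. Inferred reads were 14 to 22 per vehicle and 32 to 42 per treated library.

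Eif2ak2 encodes PKR, a kinase that halts protein synthesis when it binds double-stranded RNA. The gene (chromosome 17, 78852564 to 78882573) was at 21.5, 23.1 and 25.7 TPM in vehicle replicates 1 to 3 and at 54.1, 31.7 and 41.7 TPM in Paro/Neo replicates 1 to 3. All treated hearts were above all vehicle hearts, but they differed widely among themselves, with Paro/Neo replicate 1 highest and replicate 2 lowest. The ratio of means was 1.81 and the log2 change 0.80 ± 0.18 (SE). Without Paro/Neo replicate 1 the log2 change was 0.62.

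Tlr3, the endosomal receptor for double-stranded RNA, lies on chromosome 8 at 45395665 to 45411080. It was at 12.2, 14.0 and 13.7 TPM in vehicle hearts, against 15.3, 11.9 and 13.1 TPM with treatment. The groups overlapped fully, with the highest and the lowest of the 6 hearts both among the treated. Their means had a ratio of 1.01 and the log2 change 0.00 ± 0.12 (SE).

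Mb21d1 and Tmem173 act in turn in the sensing of cytosolic DNA. Mb21d1, encoding cGAS (chromosome 9, 78430526 to 78443237), was at 0.977, 0.766 and 0.864 TPM against 1.17, 0.859 and 1.08 TPM. The groups overlapped, and with 17 to 38 inferred reads per library the depth limits what could be seen. Its ratio of means was 1.19.

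Tmem173, encoding STING (chromosome 18, 35733679 to 35740554), was the only sensor of the 10 to stand apart in the lower direction. It was at 7.27, 9.50 and 6.89 TPM in vehicle hearts, against 4.94, 6.10 and 6.17 TPM with treatment. Vehicle replicate 2 was the highest and Paro/Neo replicate 1 the lowest. The log2 change was -0.39 ± 0.15 (SE), a mean 27.3% lower (percent difference -27.3), and it was -0.27 without vehicle replicate 2. Endothelial cells and macrophages are known to express STING. Of the 7 endothelial markers, 6 had a lower mean in treated hearts, and of the 15 macrophage markers 1 did. All 7 fibroblast markers also had a lower mean. The part of any of these cell types in the values of Tmem173 was not tested.

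Ifi202b and Ifi204 belong to the PYHIN family, DNA-binding proteins that include the inflammasome sensor Aim2. p204 is regarded as the closest mouse relative of the human DNA sensor IFI16, while p202, the product of Ifi202b, lacks the pyrin domain and can inhibit Aim2. Both genes lie on chromosome 1, Ifi204 at 173747293 to 173766943 and Ifi202b at 173962568 to 173982744, 195.6 kb apart.

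Ifi202b was at 10.8, 11.5 and 12.5 TPM in vehicle hearts, against 25.1, 31.9 and 40.4 TPM with treatment. All treated hearts were at more than 2 times the highest vehicle level, and they were spread, with Paro/Neo replicate 3 highest. Treated over vehicle means gave 2.80 and the log2 change 1.39 ± 0.17 (SE). Ifi204 was at 28.6, 30.7 and 27.7 TPM against 29.5, 32.9 and 28.8 TPM. Its groups overlapped, with a ratio of means of 1.05 and a log2 change of 0.07 ± 0.10 (SE). PYHIN genes are similar in sequence, and their copies are known to vary between mouse strains, so reads may have been split between members and single values are uncertain.

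**Figure D3:**
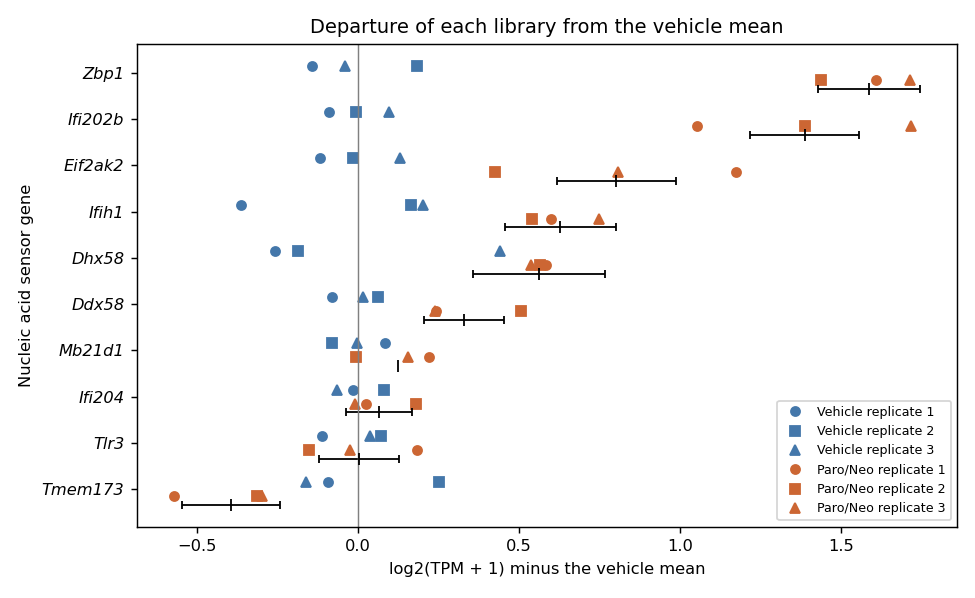
Difference of log2(TPM + 1) from the vehicle mean for the 10 sensors in each library (blue vehicle, orange Paro/Neo), with the mean log2 change and its SE in black (no SE for Mb21d1, which was not tested). Zbp1 and Ifi202b lie farthest right, at 1.59 and 1.39, Tlr3 and Ifi204 near 0, and Tmem173 at -0.39.

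The treated mice did not share 1 order across the sensors. Paro/Neo replicate 1 was the highest treated heart for Eif2ak2, Tlr3, Mb21d1 and Dhx58, replicate 2 for Ddx58 and Ifi204, and replicate 3 for Zbp1, Ifi202b, Ifih1 and Tmem173. The median departure of the 9 tested sensors from the vehicle mean was 0.59, 0.51 and 0.54 in Paro/Neo replicates 1 to 3, and -0.11, 0.07 and 0.04 in vehicle replicates 1 to 3. In these medians the treated mice were alike, although single sensors differed between them.

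Other PYHIN genes were set in order along the cluster, a view chosen after the values were seen. Of 12 PYHIN genes in the table, 11 could be placed through RefSeq symbols and synonyms. Ifi202b was flanked by Ifi203, at 32.5 TPM ± 3.70 without and 32.3 TPM ± 3.999 with treatment, and by Ifi205, at 22.9 TPM ± 2.43 and 19.3 TPM ± 4.76. Both neighbours overlapped between groups. Mnda, at 2.999 TPM ± 0.90 and 5.02 TPM ± 0.59, and the scarce Pyhin1, at 0.217 TPM ± 0.01 and 0.679 TPM ± 0.09, stood apart and were higher in treated hearts. Pyhin1 rests on 4 to 6 and 14 to 22 inferred reads per library. Pydc3, also scarce, stood apart by a narrow margin, at 0.378 TPM ± 0.15 and 0.708 TPM ± 0.23, on 3 to 12 and 10 to 23 inferred reads. Aim2 was at 4.02 TPM ± 0.42 and 5.29 TPM ± 1.17, with overlap. None of the 6 tested PYHIN genes other than Ifi202b and Ifi204 passed an adjusted p of 0.05 (limma; 1 higher and 0 lower at an unadjusted p under 0.05), and their median log2 change was -0.01.

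**Figure D4:**
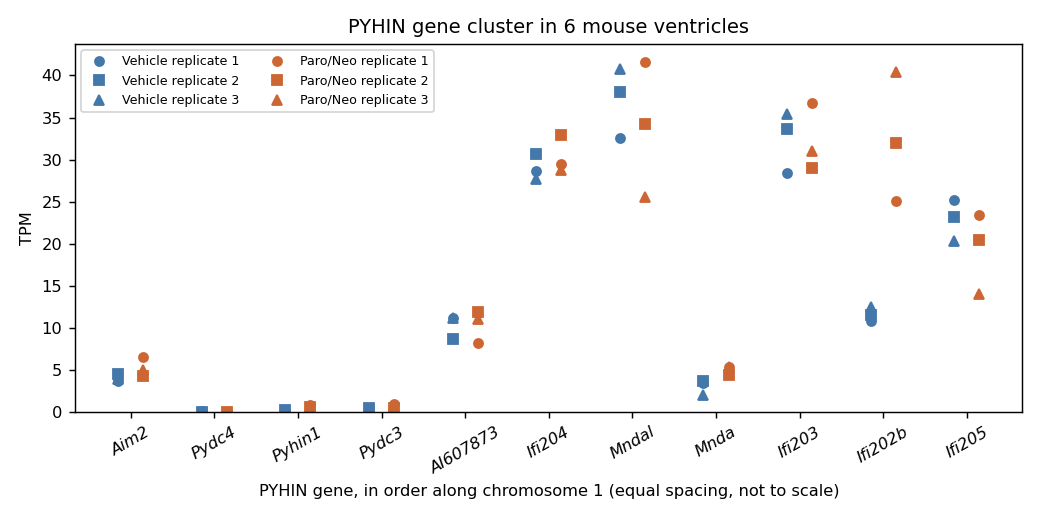
TPM of 11 PYHIN genes in each library, in their order along chromosome 1 with equal spacing; blue symbols are vehicle and orange symbols Paro/Neo libraries. Ifi202b separates the groups, at 10.8 to 12.5 against 25.1 to 40.4 TPM, while the points of its neighbours Ifi203 and Ifi205 overlap.

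The genes that act with the sensors, listed by role, were tested in the fit across all 12409 genes. Of 143 such genes in the table, 134 were tested. Of these, 62 had a higher and 72 a lower mean log2 level with treatment, and the median difference was -0.01 in log2. Past the threshold were 1 higher, Irf7, and 0 lower by limma (9 higher and 5 lower at an unadjusted p under 0.05, which 402 of all 12409 genes reached in the higher and 542 in the lower direction), where the fit called 0.121% of all genes higher and 0.0161% lower. Standing apart were 17 of the 134 in the higher and 12 in the lower direction. Over all 12409 tested genes, 6.04% stood apart higher and 8.22% lower.

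Among 25 tested adaptors, kinases and transcription factors downstream of the sensors, the difference was positive for 8 and negative for 17, with a median of -0.03. Irf7, the interferon regulatory factor that is itself interferon-inducible, was at 3.48, 5.26 and 5.14 TPM in vehicle hearts, against 31.5, 19.8 and 22.7 TPM with treatment. All 3 treated hearts were far above all vehicle hearts, as for Zbp1. Its log2 change was 2.18 ± 0.20 (SE). The limma adjusted p was 0.0136, and lay between 0.00511 and 0.0536 over the alternatives, the highest without a filter on low values.

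The other genes of this group gave no call. Mavs, the adaptor of RIG-I and MDA5, was at 36.6, 37.5 and 38.9 TPM against 24.5, 33.0 and 30.9 TPM, so all treated hearts were below all vehicle hearts. Its log2 change was -0.35 ± 0.13 (SE, limma adjusted p 0.549), and -0.23 without Paro/Neo replicate 1. Azi2, an adaptor of Tbk1, stood apart in the higher direction, at 24.6 TPM ± 3.20 and 37.9 TPM ± 10.5 (limma adjusted p 0.503). Its log2 change of 0.58 was 0.37 without Paro/Neo replicate 1. The kinase Tbk1 itself was at 20.5 TPM ± 1.31 and 20.2 TPM ± 1.66, its substrate Irf3 at 15.2 TPM ± 1.69 and 14.9 TPM ± 2.30, and the Tlr3 adaptor Ticam1 at 5.32 TPM ± 0.69 and 5.14 TPM ± 1.26. In each of those 3 the group difference was smaller than either SD.

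Of 25 cofactors and regulators of the RIG-I-like receptors, the difference was positive for 15 and negative for 10, with no call (limma; 2 higher and 0 lower at an unadjusted p under 0.05). The nearest was Ddx60, a helicase described as a partner of RIG-I. It was at 2.14, 3.07 and 3.16 TPM against 6.83, 5.79 and 7.79 TPM, so the groups stood well apart. The ratio of means was 2.44 and the log2 change 1.05 ± 0.16 (SE), with a limma adjusted p of 0.0826, and of 0.0445 by voom on inferred reads. Nlrc5, a regulator of MHC class I genes that also binds RIG-I, was at 0.646 TPM ± 0.38 and 1.93 TPM ± 1.39 with overlap, and its log2 change of 0.76 was 0.40 without Paro/Neo replicate 3, the highest heart at 3.54 TPM. Trim25, which ubiquitinates RIG-I, was at 10.7 TPM ± 1.47 and 12.6 TPM ± 1.03, overlapping. Cyld, a deubiquitinase that acts on RIG-I, stood apart at 18.1 TPM ± 0.94 and 23.4 TPM ± 4.62 (limma adjusted p 0.651).

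Endosomal receptors other than Tlr3 were low. Tlr7 was at 3.35 TPM ± 0.48 and 4.12 TPM ± 1.39, Tlr8 at 1.01 TPM ± 0.26 and 1.36 TPM ± 0.50, and Tlr13 at 2.17 TPM ± 0.67 and 3.18 TPM ± 1.12. Tlr9 had 1 to 5 inferred reads per library, too few for a comparison. The groups overlapped for each. Their escort protein gene Unc93b1 was at 11.0 TPM ± 0.93 and 11.3 TPM ± 1.37. In the list of these receptors and their trafficking factors, 7 of 13 tested genes had a positive and 6 a negative difference, with no call (limma; 1 higher and 3 lower at an unadjusted p under 0.05). Cnpy3, a chaperone of Toll-like receptors, stood apart at 15.99 TPM ± 1.17 and 12.6 TPM ± 0.84 (limma adjusted p 0.519). The cathepsins that cleave these receptors included Ctsb, which stood apart at 326 TPM ± 14.7 and 255 TPM ± 45.5 (limma adjusted p 0.585), and Ctsk, which overlapped at 12.9 TPM ± 1.10 and 8.29 TPM ± 3.57.

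Among 21 regulators of cGAS and STING, the difference was positive for 6 and negative for 15, with a median of -0.16 and no call (limma; 0 higher and 1 lower at an unadjusted p under 0.05). Hmgb2, a DNA-binding protein, was at 5.16 TPM ± 0.55 and 3.39 TPM ± 0.73 (limma adjusted p 0.490) and stood apart. Trim56, which ubiquitinates cGAS and STING pathway proteins, stood apart in the higher direction, at 3.42 TPM ± 0.30 and 4.37 TPM ± 0.30 (limma adjusted p 0.659). Enpp1, which degrades the cGAS product, was at 5.01 TPM ± 1.19 and 3.95 TPM ± 0.44 with overlap. Xrcc6, encoding the DNA-end binding protein Ku70, stood apart in the lower direction at 53.1 TPM ± 3.24 and 46.0 TPM ± 1.41 (limma adjusted p 0.673). Xrcc5, of the same list, stood apart in the higher direction at 39.0 TPM ± 4.45 and 46.2 TPM ± 4.36 (limma adjusted p 0.699).

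Enzymes that edit or degrade nucleic acids, and so keep self RNA and DNA from the sensors, had a positive difference for 8 of 15 tested genes and a negative one for 7, with no call (limma; 2 higher and 0 lower at an unadjusted p under 0.05). The 2 were Samhd1 and Adar. Samhd1, which depletes deoxynucleotides, was at 13.9, 14.6 and 13.2 TPM against 20.3, 17.1 and 22.4 TPM, with a log2 change of 0.48 ± 0.12 (SE, limma adjusted p 0.343). Adar, which edits double-stranded RNA and carries a Z-form binding domain like that of Zbp1, was at 3.22, 3.74 and 3.47 TPM against 5.06, 4.53 and 5.68 TPM, a log2 change of 0.44 ± 0.13 (SE, limma adjusted p 0.455). In both genes all treated hearts were above all vehicle hearts. The exonuclease gene Trex1 was at 11.4 TPM ± 1.48 and 12.4 TPM ± 0.89 and overlapped. Pnpt1, a mitochondrial RNA exonuclease that limits release of double-stranded RNA, stood apart in the higher direction, at 57.8 TPM ± 0.23 and 66.6 TPM ± 9.65 (limma adjusted p 0.732).

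Genes downstream of ZBP1 and the inflammasome sensors had a positive difference for 7 of 14 tested genes and a negative one for 7, a median of 0.00 and no call (limma; 0 in either direction at an unadjusted p under 0.05). Ripk3, the partner of ZBP1, was at 2.80, 3.41 and 4.04 TPM in vehicle hearts, against 2.83, 2.21 and 2.36 TPM with treatment, overlapping, with a log2 change of -0.34 ± 0.16 (SE, limma adjusted p 0.661). Mlkl, the effector of necroptosis, was at 6.11 TPM ± 0.20 and 6.10 TPM ± 0.30. Casp8 was at 11.6 TPM ± 1.53 and 11.6 TPM ± 0.82. The cytokine gene Il1b overlapped at 1.46 TPM ± 0.87 and 2.22 TPM ± 0.60. For Mlkl and Casp8 the group difference was smaller than either SD.

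The PKR pathway gave a positive difference for 9 of 15 genes and a negative one for 6, with no call (limma; 1 higher and 0 lower at an unadjusted p under 0.05). Eif2s1, which encodes the PKR substrate eIF2 alpha, was at 69.3 TPM ± 1.44 and 74.1 TPM ± 13.5. Ppp1r15a, a phosphatase subunit that reverses eIF2 alpha phosphorylation, was at 11.4 TPM ± 1.87 and 14.97 TPM ± 1.45 (limma adjusted p 0.590), and Ddit3 at 43.4 TPM ± 0.94 and 50.9 TPM ± 4.46 (limma adjusted p 0.670). Both stood apart in the higher direction. Atf4, which encodes a transcription factor translated when eIF2 alpha is phosphorylated, was at 91.4 TPM ± 3.397 and 87.5 TPM ± 1.16. Its groups stood apart in the lower direction by a narrow margin (limma adjusted p 0.861). Eif2b3, a subunit of the exchange factor for eIF2, stood apart in the higher direction, at 12.3 TPM ± 0.28 and 13.8 TPM ± 0.54 (limma adjusted p 0.748).

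Of 21 interferon genes on the list, Ifng was the 1 analysed here, with 0 or 1 inferred read per library. No comparison of interferon transcripts could be made.

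**Figure D5:**
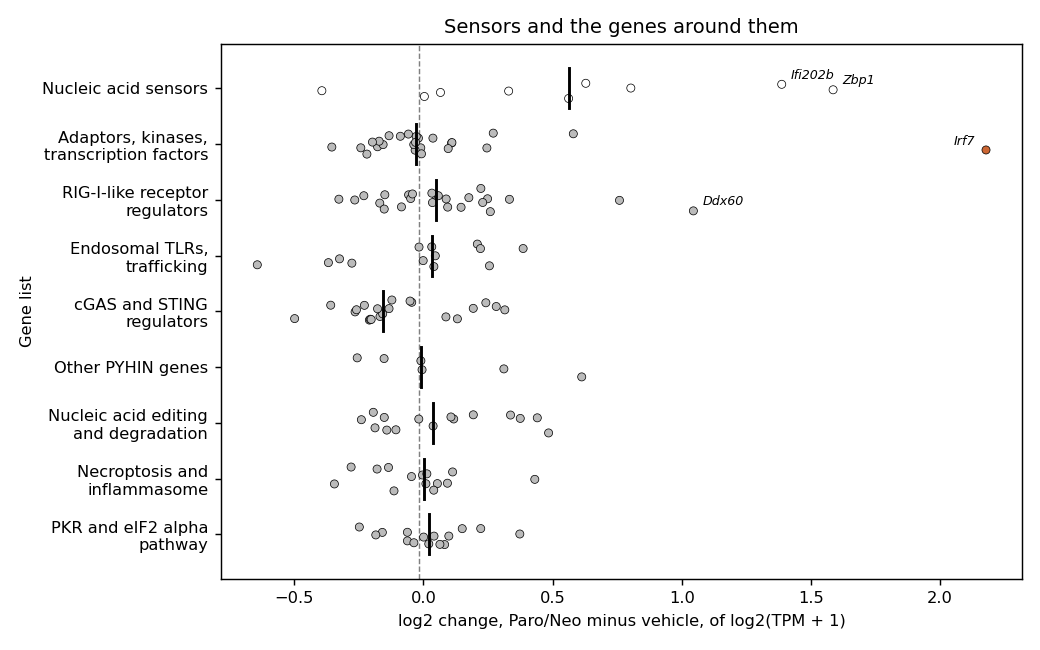
log2 change (Paro/Neo minus vehicle, of log2(TPM + 1)) of each gene by list; white points are sensors, shown without a test, orange points passed an adjusted p of 0.05 by limma, grey points did not, black ticks are list medians and the dashed line is the median of all tested genes. The sensors' median is 0.56, or 0.33 with the stricter filter, which removes Zbp1 and Dhx58. The sensors were chosen with this contrast known, so nothing is read from their median beside the others. Medians of the other lists lie between -0.16 and 0.05, with Irf7 farthest right at 2.18.

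Genes with profiles most like those of the sensors were found by the root mean square difference, over the 6 libraries, between log2(TPM + 1) profiles taken relative to the vehicle mean. Such a distance is small for genes with a like group difference, the contrast by which the sensors were chosen. Nearness is therefore a description, and shared regulation was not tested. For Zbp1 the nearest genes were Gbp3 (0.19), Ifit3 (0.19) and I830012O16Rik (0.19), and the nearest sensor was Ifi202b (0.25). Gbp3 was at 10.5, 10.5 and 12.2 TPM in vehicle hearts, against 36.8, 25.6 and 42.6 TPM with treatment. For Ifi202b the nearest were Gm12185 (0.23) and the MHC class II genes Cd74 (0.24) and H2-Aa (0.24), which like it were highest in Paro/Neo replicate 3.

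The RIG-I-like receptors did not share neighbours throughout. Oas2, a synthetase activated by double-stranded RNA, was among the 3 nearest to both Ifih1 (0.11) and Dhx58 (0.14), and Ifih1 and Dhx58 were each other's nearest sensor (0.20). Herc6 (0.10) and Ptprc (0.14), the gene of the leukocyte antigen CD45, were also near Ifih1. Ptprc was at 2.85, 4.14 and 3.63 TPM in vehicle hearts, against 7.13, 5.67 and 6.19 TPM with treatment. Near Eif2ak2 lay Oas1b (0.15) and H2-Q10 (0.15). Ddx58 was nearest to Spata33 (0.08), Kcnip2 (0.09) and Vcam1 (0.09), and 713 genes outside the sensors were nearer to it than the nearest sensor, Ifi204. Also near Dhx58 were Tmem71 (0.14) and Klra3 (0.16). Tmem173 was nearest to Jund (0.04), Sez6l2 (0.05) and C1s2 (0.05), Tlr3 to Cacybp (0.02), Pank2 (0.03) and Cav2 (0.03), and Ifi204 to Gkap1 (0.03), Kmt2b (0.03) and Fkbp2 (0.04). Small distances are common among genes that hardly move, so distances of different sensors cannot be ranked.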

How the data were processed

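Bulk mRNA libraries of 6 ventricles were used in TPM as deposited by the authors, with equal totals in all libraries; the submitters' processing notes name FastQC 0.11.5, STAR 2.5.3a, featureCounts, Subread, edgeR and mm10, without roles. For annotation and strand setting, the sources used here give nothing. Groups and replicate numbers came from sample titles. The 12409 genes that reached 1 TPM in 3 or more of 6 libraries were fitted on log2(TPM + 1) with limma 3.58.1 in R 4.3.3 (intensity trend, two-sided, Benjamini-Hochberg over all tested genes, threshold 0.05). The smallest p of an exact permutation test here is 0.1, and that test was left out. Whole reads were inferred from ratios of low TPM values (17574 of 17574 features within 0.001 of a read); they are lower estimates, and were used for depth, low values and voom. On simulated data a small part of the reads was not recovered exactly, and the fit called most changed genes but somewhat more unchanged ones than its threshold implies. In that simulation the size of the changes and the spread between mice were set in advance, not estimated from these data. It therefore cannot tell how many real changes the fit missed, and a gene without a call may still have changed. Counting error alone is covered by read numbers.

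The sensors and all gene lists were chosen with earlier results of these data known. Named genes are the sensors, each list's genes past the threshold filled to 3 by smallest p, and the 3 genes nearest each tested sensor. Tbk1, Irf3, Ticam1, Trim25, Tlr7, Tlr8, Tlr9, Tlr13, Unc93b1, Enpp1, Xrcc5, Trex1, Mlkl, Casp8, Eif2s1, Atf4, Pyhin1, Ifi203, Ifng, Gzmb, S100a8, S100a9, Lyz2 and Dcn were named after their values were seen. Some genes that this rule names are not reported here. Protein sequences were not used here.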

Additional observations from a re-analysis of the deposited data

How the results depend on the processing

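The direction of 8 of the 9 tested sensors was kept in each alternative run, 13 for 6 of them and 12 for Zbp1 and Dhx58, which the stricter filter removed. Tlr3, near 0, ranged from -0.09 to 0.08. Of 116 sensor values under alternatives, 112 moved by less than 1 SD. The others were Zbp1 and Dhx58 with a pseudocount of 0.1 and by voom, which gave 2.93 and 1.05. The sensors' median log2 change was 0.72 with a pseudocount of 0.1, 0.45 without a filter (Mb21d1 included), 0.33 with a stricter filter at a mean of 5 TPM (without Zbp1, Dhx58), 0.76 by voom, and 0.43 to 0.73 with 1 library left out. Genes called higher numbered 15, but 5 without a filter and 4 to 23 with 1 library left out. Genes called lower numbered 2, but 1 without a filter, 1 with the stricter filter, 4 with array weights and 0 to 4 with 1 library left out. Pathway genes called higher were 0 without a filter (limma; Irf7 at 0.0536, with 1267 genes at an unadjusted p under 0.05) and 2 by voom. The cause of these shifts was not tested, beyond the number of genes and samples that enter. The replicate numbers showed no sign of pairing the mice: same-numbered hearts had deviations correlated at -0.122 to -0.036 across genes, and no heart correlated best with its own number. These deviations were taken from means of 3 mice, which ties them to each other. The correlations therefore cannot tell whether the mice were paired. The replicate numbers are those of the sample titles, while the submitters' library names number the treated hearts differently. A block by those names was not fitted. With the replicate block by title numbers, 25 genes were called higher, and Irf7 was past the threshold as without it (limma adjusted p 0.0275). Depth limits Zbp1, Mb21d1, Dhx58, Pyhin1 and Tlr9.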
